A study of Mus musculus with 15 samples.

Results

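The H3K4me3 islands at 10 liver genes that make urea and glutamine or break down amino acids were followed across 5 diets. The genes were given as a list by name (Cps1, Otc, Ass1, Asl, Arg1, Nags, Glul, Gls2, Tat and Tdo2) and are 10 of the 21755 protein-coding genes annotated by GENCODE on chromosomes 1 to 19 and X of mm10. All 10 were found, and all 10 had an island in at least 8 of the 15 libraries, as 8722 genes or 40.09% of the protein-coding genes did.

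Livers came from 15 wild-type C57BL/6 females (C57BL/6J in the study's methods), assigned to the diets at 3 months of age and then fed for 10 months, and their labels state 12 months as the age. There were 3 mice per diet. The standard diet (SD) was the reference, caloric restriction (CR) was a reduced daily amount of it, and HF was a high-fat diet given ad libitum. In the yellow diet (YD) and the red diet (RD) the maize of the standard formula was replaced by seed powder of near-isogenic corn lines, free of anthocyanins in YD and purple, with anthocyanins, in RD. SD, YD and RD were also eaten ad libitum. The litters of the mice are not given per animal, and whole liver sections were used, so the values are those of all liver cells together.

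H3K4me3, a trimethylated lysine on the tail of histone H3, marks the region around the start of genes that are active or ready for transcription. Ammonia released from amino acids enters the urea cycle through carbamoyl phosphate in liver mitochondria, and the cycle then runs between mitochondria and cytosol until arginase releases urea. Hepatocytes around the portal vein hold the urea cycle and glutaminase, whereas those around the central vein take up the remaining ammonia with glutamine synthetase. Tyrosine aminotransferase and tryptophan dioxygenase start the breakdown of their amino acids and are classical glucocorticoid-responsive enzymes of hepatocytes.

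The libraries were made by PAT-ChIP, in which chromatin for the immunoprecipitation is extracted from livers fixed in formalin and kept in paraffin, and the authors deposited a list of SICER2 islands for each mouse. An island is a run of windows of 200 bp enriched in reads, joined over gaps of up to 400 bp, with a score that adds up the evidence of its windows. An island was assigned to a gene when it lay within 1 kb of any of its transcription start sites (TSSs), and the summed width of such islands, 0 bp when there was none, is called the width here. The score rank is the place of the gene's best island in the list of its own library, given as a percent of the list, so that a small percent is near the top. Widths and ranks come from lists and not from reads at each gene, and a gene without an island may still carry H3K4me3 below the calling threshold.

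The lists held 7825 to 33752 islands, from 5589269 to 15449854 reads as recovered from the steps of the deposited scores. The share of protein-coding genes with an island was 22.8% ± 4.69 in YD and 31.2% ± 3.46 in RD, beside 39.6% ± 5.98 in SD, 43.4% ± 6.92 in CR and 51.2% ± 3.53 in HF (mean ± SD, n = 3 mice each). The labelled tissue was met by its markers, since 6 to 8 of 8 hepatocyte genes had an island in every library. Of these 8 genes, 5 were marked in all 15 libraries. Alb was marked least often, in 8 libraries (1 of SD, 0 of CR, 3 of HF, 3 of YD and 1 of RD). Of 6 Kupffer cell markers, up to 3 were marked in a HF library and 0 in the 12 others, while Vsig4, Marco and Csf1r were at 0 throughout. Endothelial markers numbered 2 to 6 of 6 in HF and 0 to 4 elsewhere, and stellate markers 1 to 4 of 6 in HF and 0 to 2 elsewhere. At most 2 of 5 cholangiocyte markers were marked in any library, with Krt19, Epcam and Spp1 at 0 throughout. At most 1 of 5 annotated lymphocyte markers was marked, with Cd3e, Cd79a and Cd2 at 0 throughout. The part of other liver cells in the results was not tested.

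The DNA just upstream of the members differs widely in CpG dinucleotides, and 4 sequences are shown to give that range beside the islands described next. RefSeq promoters of GRCm38.p6, with 250 bases before and 50 after the start site, were matched for 6 of the 10 members, and Cps1, Asl, Arg1 and Gls2 had no entry. Among these 300 bases, CpG occurred 1 time in Otc, 4 times in Tdo2, 5 times in Tat, 14 times in Nags, 17 times in Glul and 27 times in Ass1, against a median of 7 over 32851 promoters. The stretches below run 5′ to 3′ along the gene, leave out bases in annotated exons, and have CpG in capitals.
Otc, chrX:10252055-10252304, + strand: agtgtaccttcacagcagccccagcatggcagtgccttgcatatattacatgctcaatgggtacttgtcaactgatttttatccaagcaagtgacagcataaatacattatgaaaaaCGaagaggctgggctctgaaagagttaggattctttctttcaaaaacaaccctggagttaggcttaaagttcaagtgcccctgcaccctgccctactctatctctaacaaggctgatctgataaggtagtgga
Tat, chr8:109990186-109990435, + strand: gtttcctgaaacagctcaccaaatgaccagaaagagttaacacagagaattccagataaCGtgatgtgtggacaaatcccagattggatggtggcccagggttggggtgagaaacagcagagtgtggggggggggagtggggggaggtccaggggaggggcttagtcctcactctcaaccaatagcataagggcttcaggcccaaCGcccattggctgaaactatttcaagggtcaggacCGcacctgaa
Nags, chr11:102145263-102145512, + strand: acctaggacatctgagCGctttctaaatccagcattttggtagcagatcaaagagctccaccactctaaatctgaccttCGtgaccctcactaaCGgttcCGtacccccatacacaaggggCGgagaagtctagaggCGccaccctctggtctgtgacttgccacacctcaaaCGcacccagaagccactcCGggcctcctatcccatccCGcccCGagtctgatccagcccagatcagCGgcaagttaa
Ass1, chr2:31470020-31470206, + strand: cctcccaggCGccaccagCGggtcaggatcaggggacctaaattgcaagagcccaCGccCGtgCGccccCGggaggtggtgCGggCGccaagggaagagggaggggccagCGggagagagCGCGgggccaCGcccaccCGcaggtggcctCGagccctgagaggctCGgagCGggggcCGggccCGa
The Otc stretch holds a single CpG near its middle, whereas the 187 bases shown for Ass1 hold 18. On either strand of the 250 upstream bases, the letters TATAA were found only in Tdo2 among the 6 members, and in 22.8% of all promoters. CCAAT was found in Glul, Tat and Tdo2, and in 33.9% of all promoters. These matches describe letters and say nothing of binding.

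The members were marked in most livers, and their islands at the principal TSS reached mostly downstream of it. An island was present in 135 of the 150 pairs of gene and library (90%), and Ass1, Asl and Tat had it in all 15 libraries, as 9.464% of protein-coding genes did. Arg1, Glul and Tdo2 were marked in 14 libraries, Cps1 in 13, Nags and Gls2 in 12 and Otc in 11. All 10 members were marked in every SD and CR library and in HF_1 and HF_2, where the number is the replicate. HF_3, YD_1 and RD_2 held 9 of them, YD_2 and RD_1 held 8, and YD_3 and RD_3 held 6. Of the 15 absences, 14 were thus in YD and RD and 1 in HF. The number of members marked followed the share of protein-coding genes marked in the library with a Pearson r of 0.72, against -0.01 for the recovered reads (15 libraries, given as a description).

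**Figure D1:**
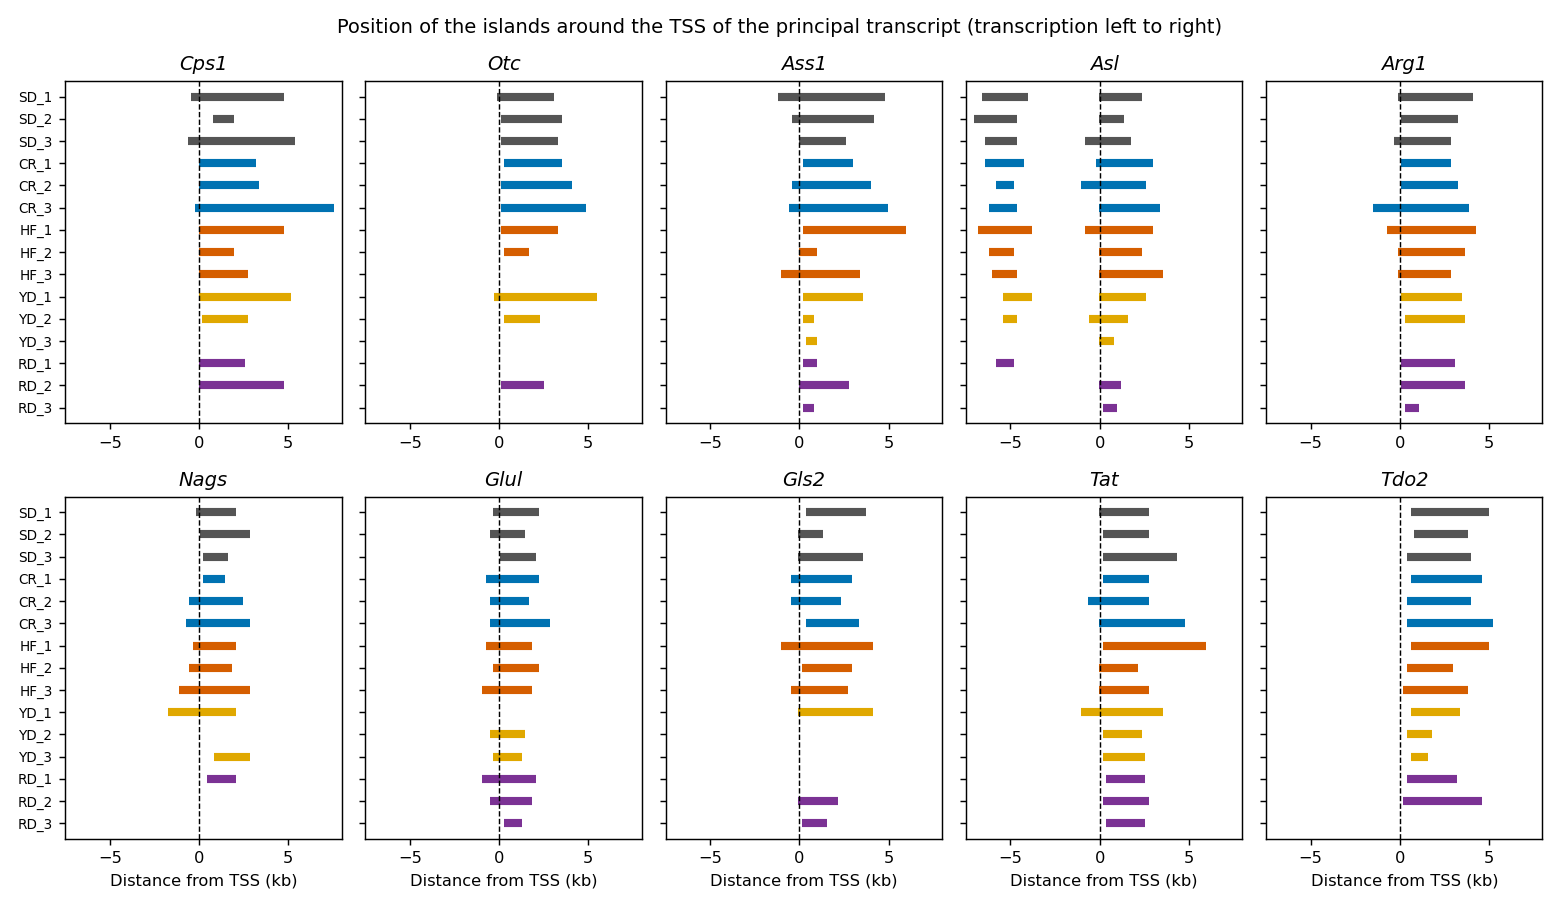
Islands at the 10 members in each of the 15 libraries (rows), as the distance in kb from the TSS of the principal transcript (dashed line), with transcription from left to right and colours for the 5 diets. The bars run to the right of the line at all members, Asl has a separate island about 5 kb upstream in most libraries, and the empty rows lie mostly in YD and RD.

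Measured from the TSS of the principal transcript, the median island of a member reached 12.5 bp upstream and 2968 bp downstream, leaving out the separate island that Asl had upstream in 12 libraries. It was longer downstream than upstream in 100% of 134 gene and library pairs, against 77.2% over the 6693 genes tested that have a principal transcript, whose medians were 539 bp upstream and 1307 bp downstream. The TSS itself lay inside the island in 54.5% of the pairs of the members and in 79.3% over all genes. Island ends fall on windows of 200 bp, so that distances from the TSS shorter than a window are below the resolution of the lists. The median island of Otc began 96 bp, of Arg1 84 bp and of Tat 164 bp after the TSS. Glul, which had the most upstream reach of the members, extended a median 543 bp upstream and held the TSS in 12 of 14 libraries. Tdo2 was at the other end, with the GENCODE TSS in 0 of its 14 islands, as was so for 1.12% of genes. The RefSeq start of Tdo2, at 81975728, lies 474 bp downstream of the GENCODE start and was inside some of these islands. For example, it was inside that of SD_3, which reached 81975800, but not that of SD_1, which reached 81975600. The islands of Otc held the TSS in 2 of 11 libraries, those of Tat in 6 of 15, those of Ass1 in 8 of 15 and those of Nags in 7 of 12. An island that held the TSS did not always span the stretch printed above, since that of Ass1 in SD_3 began 6 bp upstream of the TSS.

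Relative to other marked genes the islands were wide. The median percentile of width among the genes marked in the same library was 93.8 for Asl, 89.4 for Cps1, 88.7 for Arg1, 87.4 for Tdo2 and 83.6 for Otc. It was 79.6 for Tat, 77.9 for Ass1, 75.2 for Gls2, 71.96 for Nags and 65.8 for Glul. For Asl the value adds up separate islands, which the other members did not have. Some islands are shared with neighbours and cannot be assigned to either gene: the Arg1 island with the bidirectional noncoding gene Gm36172, 135 bp away, in 14 libraries, the Glul island with Teddm2 (264 bp) and Mir8114 (18 bp) in 14, and the Nags island with the antisense gene Gm11586 (697 bp) in 12.

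**Figure D2:**
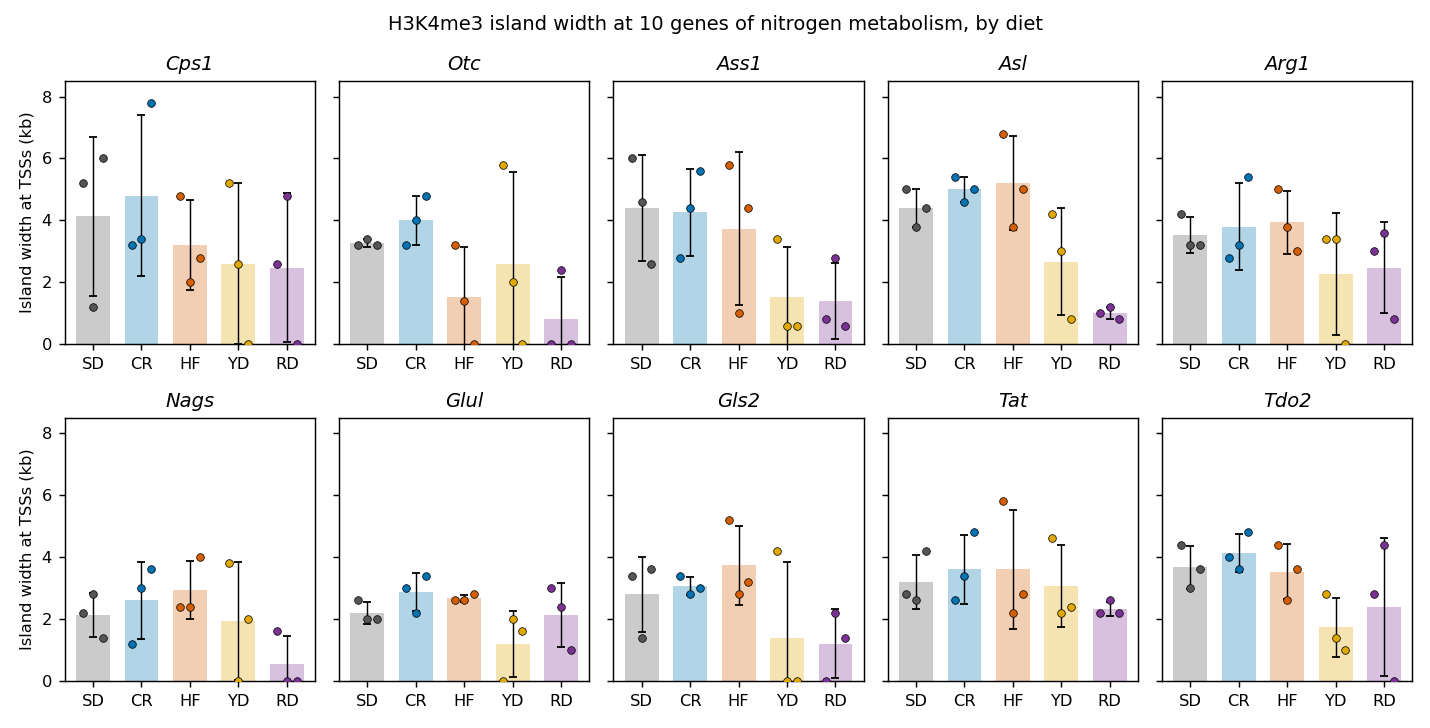
Summed width in kb of the islands at the TSSs of each member by diet, with a point for each of the 3 mice, a bar for the mean and an error bar of 1 SD. Points at 0 are livers without an island, SD and CR have none, and the points of Asl in RD lie together between 0.8 and 1.2 kb.

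The mitochondrial entry to the cycle is made by N-acetylglutamate synthase (Nags), whose product activates carbamoyl phosphate synthetase (Cps1), and by ornithine transcarbamylase (Otc). Nags, on chromosome 11 from 102145513 to 102149477, had widths of 2200, 2800 and 1400 bp in SD, 1200, 3000 and 3600 bp in CR and 2400, 2400 and 4000 bp in HF. In YD the widths were 3800, 0 and 2000 bp and in RD 1600, 0 and 0 bp. RD had the island in 1 mouse, whose width was inside the SD range, and YD ran from no island to 3800 bp. Cps1, on chromosome 1 from 67123026 to 67231259, measured 5200, 1200 and 6000 bp in SD, 3200, 3400 and 7800 bp in CR and 4800, 2000 and 2800 bp in HF. It measured 5200, 2600 and 0 bp in YD and 2600, 4800 and 0 bp in RD. Every diet overlapped every other at Cps1, where the 7800 bp of CR_3 were the widest value of any member and the best score rank as well, at 0.501% of the list.

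Otc, on chromosome X from 10252305 to 10321024, had close values of 3200, 3400 and 3200 bp in SD and 3200, 4000 and 4800 bp in CR. The widths were 3200, 1400 and 0 bp in HF, 5800, 2000 and 0 bp in YD and 0, 2400 and 0 bp in RD. All RD mice were below all SD mice, as at 11.8% of genes tested, whereas HF and YD each ran from 0 bp up to or past the SD values. The difference of RD from SD was -2467 bp, with an exact two-sided permutation p of 0.1, the smallest that 3 against 3 mice allow.

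Argininosuccinate synthase (Ass1) and argininosuccinate lyase (Asl) carry the cytosolic steps, and arginase 1 (Arg1) releases urea. Ass1, on chromosome 2 from 31470207 to 31520672, measured 6000, 4600 and 2600 bp in SD, 2800, 4400 and 5600 bp in CR and 5800, 1000 and 4400 bp in HF. It measured 3400, 600 and 600 bp in YD and 800, 2800 and 600 bp in RD. Both corn diets had a pair of livers under 1000 bp and the other liver inside the SD range, and HF_2 was also low. Asl, on chromosome 5 from 130011258 to 130029247, measured 5000, 3800 and 4400 bp in SD, 5400, 4600 and 5000 bp in CR and 6800, 3800 and 5000 bp in HF. It measured 4200, 3000 and 800 bp in YD and 1000, 1200 and 800 bp in RD. At Asl the 9 livers of SD, CR and HF were at or above 3800 bp, all RD livers were below them, and YD_1 alone of the corn livers fell among them. The difference of RD from SD was -3400 bp (exact two-sided permutation p of 0.1, the smallest possible). All RD mice were below all SD mice at 11.8% of genes tested.

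The Asl values combine an island at the principal TSS (130024381) with another at an upstream TSS (130029247), which lies 43 bp from a TSS of Crcp and is shared with that gene in 12 libraries. At the principal TSS the island measured 2400, 1400 and 2600 bp in SD, 2600, 2200 and 800 bp in YD and 0, 1200 and 800 bp in RD. At the upstream TSS it measured 2600, 2400 and 1800 bp in SD, 1600, 800 and 0 bp in YD and 1000, 0 and 0 bp in RD. Both islands were thus below all SD values in all RD mice, and the upstream island also in all YD mice. CR and HF had 2400 to 3800 bp at the principal and 1000 to 3000 bp at the upstream TSS. There CR_2 (1000 bp), CR_3 (1600 bp), HF_2 and HF_3 (1400 bp each) were also below all SD values, and CR_1 and HF_1 were not. Shares over all genes were taken for the summed width only, where 11.8% of genes had all RD mice below all SD mice and 21.5% all YD mice. Arg1, on chromosome 10 from 24915221 to 24927484, ranged from 2800 to 5400 bp in SD, CR and HF. It measured 3400, 3400 and 0 bp in YD and 3000, 3600 and 800 bp in RD, so that only YD_3 and RD_3 stood apart. No island was found in any library at Arg2, the extrahepatic arginase.

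Glutamine synthetase (Glul) makes glutamine around the central vein, and the liver glutaminase (Gls2) frees ammonia from it around the portal vein. Glul, on chromosome 1 from 153899944 to 153909723, was the steadiest member in the non-corn diets, at 2000 to 3400 bp. It measured 0, 2000 and 1600 bp in YD and 3000, 2400 and 1000 bp in RD. YD_1, which lacked the island, had the most reads but the shortest list, with 7825 islands and 24.3% of protein-coding genes marked. The lowest score in its list, 26.8, was above that of every other list. Gls2, on chromosome 10 from 128194457 to 128210004, measured 3400, 1400 and 3600 bp in SD, 3400, 2800 and 3000 bp in CR and 5200, 2800 and 3200 bp in HF. It measured 4200, 0 and 0 bp in YD and 0, 2200 and 1400 bp in RD. Of the 6 corn livers 3 had no Gls2 island, and YD_1 was wider than every SD liver.

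Tyrosine aminotransferase (Tat), on chromosome 8 from 109990437 to 109999803, kept its island in every liver. The widths were 2800, 2600 and 4200 bp in SD, 4600, 2200 and 2400 bp in YD and 2200, 2600 and 2200 bp in RD, with 2200 to 5800 bp in CR and HF. The diets overlapped, and the smallest Tat island of the series was 2200 bp. Tryptophan dioxygenase (Tdo2), on chromosome 3 from 81957090 to 81976202, measured 4400, 3000 and 3600 bp in SD and 2600 to 4800 bp in CR and HF. It measured 2800, 1400 and 1000 bp in YD and 2800, 4400 and 0 bp in RD. All YD mice were below all SD mice, as at 21.5% of genes tested, by -1933 bp on average (exact two-sided permutation p of 0.1, the smallest possible). RD ran from no island to the highest SD value.

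**Figure D3:**
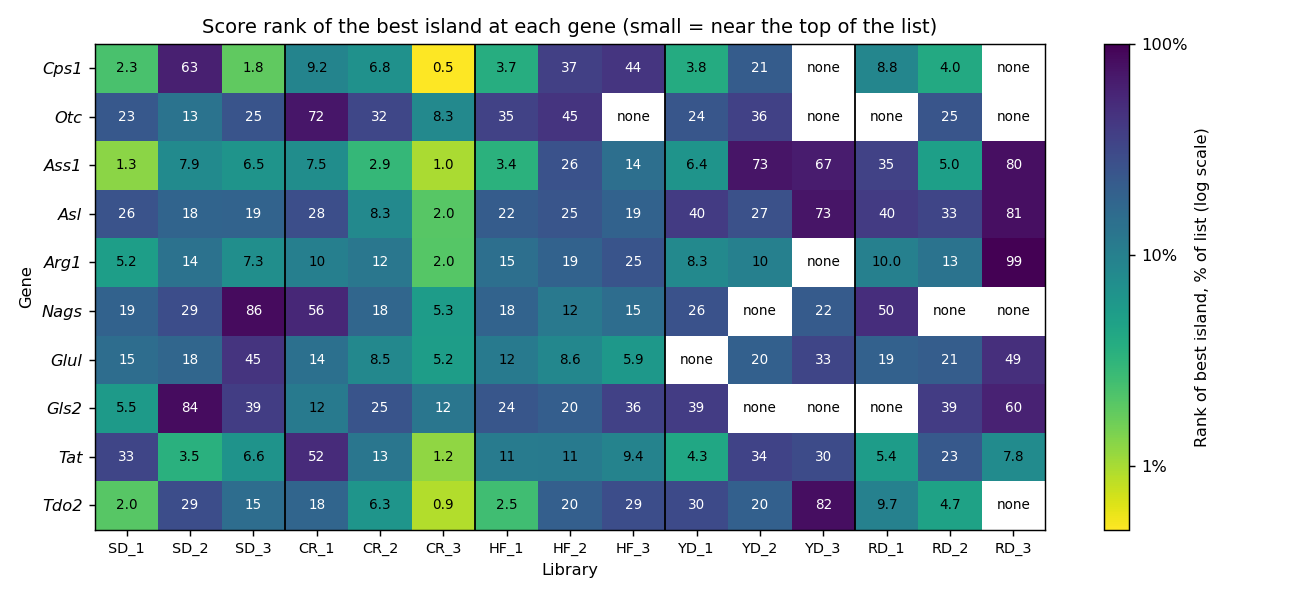
Score rank of the best island at each member (rows) in each library (columns, 3 per diet), as a percent of that library's list on a log colour scale, with small values near the top and "none" where there is no island. CR_3 has the smallest percent of all libraries for 9 of the 10 members, and YD_3 and RD_3 have 4 empty cells each.

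The score ranks varied widely among the mice of a diet. Cps1 reached the top 2.30%, 62.6% and 1.82% in SD, 9.19%, 6.80% and 0.501% in CR and 3.69%, 36.9% and 44.4% in HF. It reached 3.85% and 21.3% in the marked YD livers and 8.80% and 4.04% in the marked RD livers. The medians over marked libraries were 6.80% for Cps1, 7.53% for Ass1, 11.02% for Tat and 11.2% for Arg1, and the lowest-placed medians were 26.0% for Asl and 30.6% for Gls2. The best rank of 9 members was in CR_3, whose list was the longest, and that of Gls2 was in SD_1. At Ass1 the ranks were 1.25%, 7.89% and 6.48% in SD, 6.40%, 73.5% and 66.5% in YD and 35.0%, 5.01% and 79.7% in RD, so that the livers with islands under 1000 bp were also further down their lists than all SD livers. Rank and width are not independent measures, since the score adds up over the windows of an island. In the fits below, a missing island also counts as 0 bp and as the end of the list at once.

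The diets were compared with SD, the reference, and RD with YD, the pair that differs in anthocyanins, by limma over the 8722 genes on log2(width + 200 bp). Differences are on that scale and understate changes of short islands, and comparisons with SD share the 3 SD mice. Under CR 0 of 10 members were called in width at an adjusted p of 0.05, with a median of 0.19, beside 0.18 for all genes tested. No gene was called in either direction (0% of genes tested, and 243 at an unadjusted p of 0.05). Groups that did not overlap occurred at 0 members, and at 6.58% of genes with CR higher and 1.33% with CR lower. Under HF 0 members were called, with a median of 0.10 beside 0.50 for all genes, all 10 being below that all-gene value, and 0.0229% of genes were called higher and 0% lower (437 of either direction unadjusted). Otc had the lowest HF value, -1.75 ± 1.28 (SE, limma, adjusted p = 0.877). Again 0 members had groups that did not overlap, where 17.1% of genes had them with HF higher and 0.161% with HF lower.

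**Figure D4:**
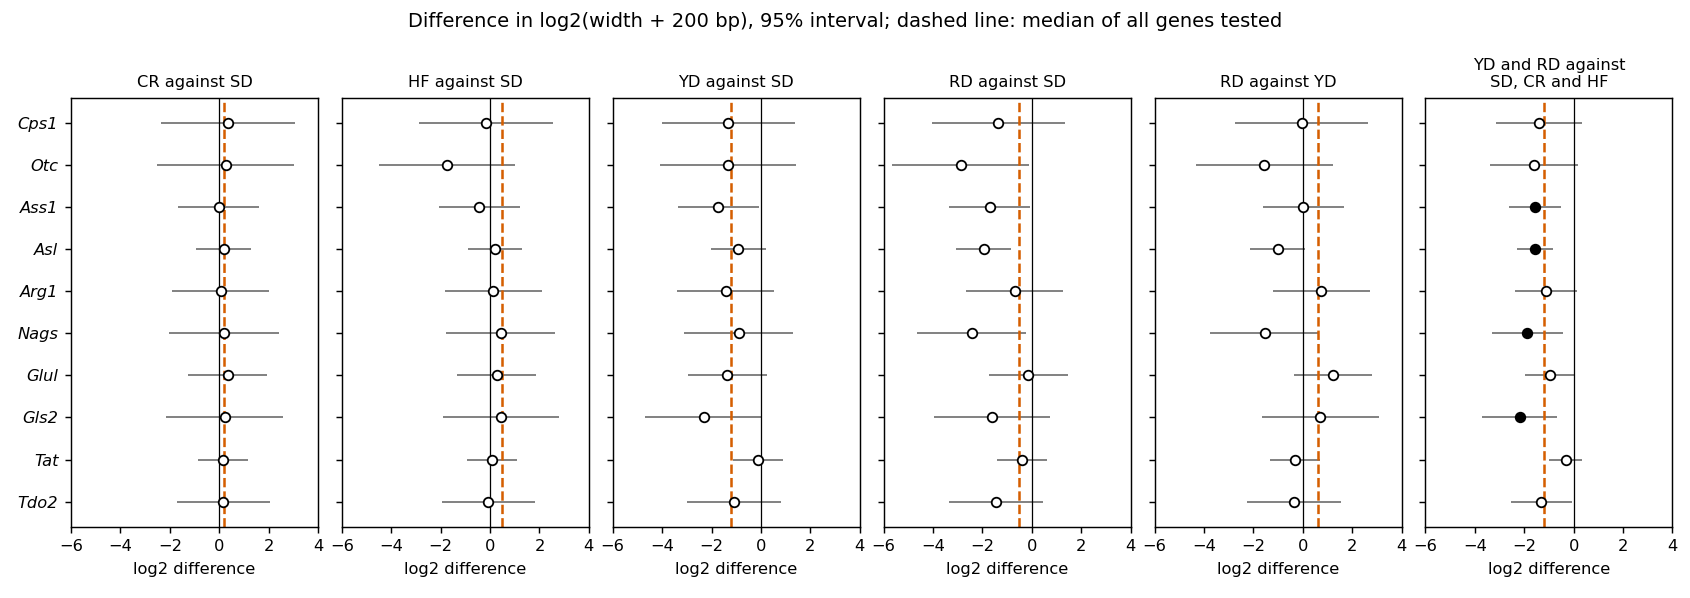
limma differences in log2(width + 200 bp) of each member in the 5 planned comparisons and in the pooled one added later, with 95% intervals, filled points for an adjusted p under 0.05 and a dashed line at the median of all genes tested. Filled points occur only at Ass1, Asl, Nags and Gls2 in the pooled comparison, and in YD and RD all 10 points lie below 0.

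Under YD all 10 members had values below 0, but none passed the test. The median was -1.32, beside -1.23 for all genes tested, of which 10.6% were called lower. At an unadjusted limma p of 0.05, 2687 genes (30.8%) passed, as did 1 of 10 members, Ass1. The lowest values were -2.32 ± 1.10 for Gls2 (SE, limma adjusted p = 0.168) and -1.73 ± 0.76 for Ass1 (adjusted p = 0.150), and Tat had the highest, -0.10 ± 0.47 (adjusted p = 0.892). Without YD_1, Gls2 at -3.81 (limma adjusted p = 0.0140) and Ass1 at -2.45 (adjusted p = 0.0426) were called. Groups that did not overlap occurred at 1 of 10 members, Tdo2, and at 21.5% of genes in that direction (0.0803% in the other).

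Under RD all 10 members were again below 0 and none passed the test, with a median of -1.53 beside -0.52 for all genes, and 8 of the 10 below the all-gene value. Of the genes tested, 1.28% were called lower and 0.0459% higher. Unadjusted, 1067 genes (12.2%) passed, with 4 of 10 members among them, Otc, Ass1, Asl and Nags. The value of Asl was -1.94 ± 0.51 (SE, limma adjusted p = 0.0970), with a 95% interval from -3.05 to -0.84. Without YD_3, which enters only through the shared estimate of the spread, Asl was called at the same -1.94 (limma adjusted p = 0.0119). Otc stood at -2.88 ± 1.28 (limma adjusted p = 0.385) and Nags at -2.44 ± 1.03 (adjusted p = 0.338). Non-overlapping groups occurred at 2 of 10 members, Otc and Asl, and at 11.8% of genes in that direction (0.470% in the other).

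Between RD and YD, 0 members were called, with a median of -0.17 beside 0.61 for all genes. Of the genes tested, 1.94% were called higher in RD and 0.0459% lower. Unadjusted, 1215 genes (13.9%) and 0 members passed. Asl had -1.02 ± 0.51 (SE, limma adjusted p = 0.396), and Glul, at the other end, 1.22 ± 0.74 (adjusted p = 0.515), with a 95% interval from -0.37 to 2.81. Without YD_3, Asl was called lower in RD, at -1.66 (limma adjusted p = 0.0499). The groups overlapped at all 10 members, and did not at 6.23% of genes with RD higher and 0.287% with RD lower. In score rank 0 members were called in any of these 5 comparisons, where 2 genes (0.0229%) were called in YD and 2 in RD against SD, and 0 in the others. At an unadjusted p of 0.05 the genes numbered 2072 (23.8%) in YD, 621 (7.12%) in RD, 557 in HF and 454 in CR against SD, and 985 in RD against YD. Ass1 was the member among them in YD and in RD.

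On the log2 scale of the rank, where a positive difference is a place further down the list, the members' median was -0.90 in CR against SD, beside -0.36 for all genes, and 8 of 10 members were below 0. In HF it was 0.23 beside -0.49, in YD 1.25 beside 0.99, in RD 1.22 beside 0.43, and in RD against YD -0.32 beside -0.52. In YD and in RD all 10 members had values above 0, that of Ass1 being 2.98 ± 1.13 in YD (SE, limma adjusted p = 0.145) and 2.59 ± 1.13 in RD (adjusted p = 0.698).

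Set together after the data were seen, YD and RD against SD, CR and HF gave 4 of 10 members a lower width, and 40.0% of all genes were called lower in the same comparison. A gene could pass the filter of 8 libraries through SD, CR and HF alone, but not through YD and RD alone. Genes marked only in the corn diets were thus not tested, and how far the pooled calls rest on this filter was not tested. Asl had -1.56 ± 0.33 (SE, limma adjusted p = 0.00429), Ass1 -1.56 ± 0.49 (0.0271), Gls2 -2.19 ± 0.71 (0.0299) and Nags -1.88 ± 0.66 (0.0398). The differences of Gls2 and Nags rest on corn livers without an island, which entered as 0 bp. In the marked corn livers Gls2 measured 4200, 2200 and 1400 bp and Nags 3800, 2000 and 1600 bp. These widths were within those of SD, CR and HF, 1400 to 5200 bp at Gls2 and 1200 to 4000 bp at Nags. Of the members not called, Tdo2 had -1.31 (limma adjusted p = 0.0760) and Tat -0.32 (0.343), and the median of the 10 was -1.48, beside -1.19 for all genes. Asl was called in 15 of the 15 fits that left out a library, Gls2 in 10, Ass1 in 7 and Nags in 4. Gls2 was lost without SD_1, HF_1, YD_2, YD_3 or RD_1 (adjusted p up to 0.0811 over all 15), with differences of -2.13 to -1.64 in those fits. Ass1 was lost without SD_1, CR_3, HF_1, HF_3, YD_2, YD_3, RD_1 or RD_3 (up to 0.0669), with differences of -1.49 to -1.38. Nags was kept only without SD_3, CR_1, YD_1 or RD_1 (up to 0.0978), and had -2.10 to -1.23 in the other fits. Otc was added to the calls without YD_1 (limma adjusted p = 0.0466) or RD_2 (0.0382), Glul without YD_2 (0.0494) and Tdo2 without RD_2 (0.0243).

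In score rank the same pooled comparison placed 5 of 10 members further down the lists, where 35.4% of all genes were called in that direction and 0.115% in the other. The differences were 2.48 ± 0.73 for Ass1 (SE, limma adjusted p = 0.0208), 1.49 ± 0.45 for Glul (0.0223), 1.58 ± 0.49 for Asl (0.0244), 1.62 ± 0.51 for Gls2 (0.0270) and 1.39 ± 0.52 for Nags (0.0463). The median of the 10 was 1.44, beside 1.00 for all genes. These calls are not independent of those in width. Ass1 and Asl were lost without YD_3 or RD_3, Glul without YD_1 or RD_3, and Gls2 without YD_2, YD_3 or RD_1, at adjusted p up to 0.0667, while Nags was kept only without SD_3, CR_1 or RD_1 (up to 0.117). None of the 5 was called with equal numbers of islands or in libraries centred at their median, where Ass1 had 1.30 (limma adjusted p = 0.414).

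Since the width of all genes moved with diet, the values were also taken relative to the median gene of each library. On that scale 0 members were called in width in any comparison, the pooled one included, where Asl had -0.42 (limma adjusted p = 0.489), and 6 genes were called in all. The members' median became 0.13 in YD against SD with 8 of 10 above 0, while it remained below 0 in RD against SD, at -1.07 with 2 of 10 above 0. In RD against YD it was -1.15 with 1 of 10 above 0. The YD values on this scale are limited by YD_3, where only 3811 protein-coding genes had an island, against 8722 genes tested. The median gene of YD_3 thus had no island, with a width of 0 bp and a rank at the end of the list. Members without an island in YD_3 were therefore placed level with that gene, and marked members above it. How far the centred values of comparisons that include YD rest on this was not tested. Asl had -1.48 ± 0.46 in RD against SD (SE, limma adjusted p = 0.407) and -2.01 ± 0.46 in RD against YD (adjusted p = 0.258). Tat moved from -0.10 to 1.35 ± 0.64 in YD against SD (limma adjusted p = 0.519). The unadjusted calls were 775 genes in YD, 474 in RD and 822 in RD against YD.

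Genes that work beside the members were listed as well: 62 genes of urea cycle partners and of the breakdown of tyrosine and phenylalanine, tryptophan, histidine, branched-chain amino acids, and lysine, proline and threonine. Of these, 51 had enough islands to be tested. Against SD, 0 were called in CR, HF or RD and 3 were lower in YD (5.88%, against 10.6% of all genes), Bckdhb, Hibadh and Prodh, of which Hibadh was higher in RD than in YD by 2.36 (limma adjusted p = 0.0394). Their medians were -0.98 in YD and -0.36 in RD, so that in RD they stood nearer the all-gene value than the 10 members did, a difference that was not tested. In the pooled comparison 15 were lower (29.4%, against the 40.0% of all genes), with a median of -0.99.

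By group, and beside the 40.0% of all genes called lower, which the shares of these groups were under or near, the pooled comparison called 3 of 12 tested urea cycle partners lower, among them the alanine aminotransferases Gpt2 at -1.82 (limma adjusted p = 0.0293) and Gpt at -0.99 (0.0310), and the asparaginase Aspg at -1.76 (0.0498). The carriers Slc25a15, which exchanges ornithine and citrulline, and Slc25a13, the aspartate carrier citrin, had islands in 14 and 10 libraries and were not called. In tryptophan breakdown 2 of 6 were lower, Ido2 at -2.74 (limma adjusted p = 0.00320) and Kmo at -1.35 (0.0466). In branched-chain breakdown 7 of 18 were lower, with Bckdhb, a subunit of the branched-chain ketoacid dehydrogenase, at -2.72 (limma adjusted p = 0.00102), Mccc2 at -1.95 (0.0348), Mut at -1.90 (0.0150) and Pcca at -1.85 (0.0359). Of lysine, proline and threonine genes 3 of 7 were lower, Prodh, the proline dehydrogenase, at -1.86 (limma adjusted p = 0.00851), Aldh7a1 at -1.83 (0.0158) and Aldh4a1 at -1.03 (0.0119). None of the 6 tyrosine and phenylalanine genes or the 2 histidine genes tested was called.

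The same 40.0% and the all-gene median of -1.19 are the background of the zonal and marker genes. Among pericentral genes other than Glul, 3 of 8 could be tested and Tbx3 was lower in the pooled comparison, at -2.20 (limma adjusted p = 0.0124). Among periportal genes, which include Gls2, 4 of 7 could be tested, and Pck1, the gluconeogenic enzyme, was lower at -2.82 (0.0135). Hepatocyte markers had a median of -0.58 there, with 1 of 8 called, Serpina1a at -1.58 (limma adjusted p = 0.0469). The pericentral genes Slc1a2 and Rhbg and the threonine genes Sdsl and Tdh had no island in any library.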

How the data were processed

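H3K4me3 islands of 15 livers, 3 mice for each of 5 diets, were read from the lists the authors deposited, 1 per library. The authors aligned 50 bp single reads to mm10 with bwa, removed duplicates and reads with a MAPQ under 1 using samtools, and called islands with SICER2 (fragment and window of 200 bp, gap of 400 bp, FDR under 0.05). The deposited value is a score per island, which adds, window by window, the negative natural log of a Poisson probability, and which depends on depth and was used only for ranks within a list. Groups and replicate numbers were taken from the labels. The names of 5 libraries hold PATChIP (CR_1, CR_2, HF_2, HF_3 and RD_1) and those of 10 hold ChIP. With ChIP names alone, CR is left with CR_3 only and HF with HF_1 only, so that fits of these libraries rest on fewer mice.

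The 10 members and the companion lists were chosen with earlier results of these data known. TSSs were those of GENCODE M21, and promoters those of RefSeq. limma 3.58.1 in R 4.3.3 was fitted to 5 diet means over 8722 protein-coding genes with an island in at least 8 libraries, on log2(width + 200 bp) and on log2 of the rank divided by the list length (the end of the list without an island), with Benjamini-Hochberg adjustment and a threshold of 0.05. Exact permutation tests compared 3 with 3 mice. Python 3.11.15, pandas 2.3.3, scipy 1.17.1 and matplotlib 3.10.9 were used, and the fit was tested on simulated data. Genes other than the members were named when they shared an island with a member in at least 8 libraries, were a paralog (Arg2), or were listed genes that were called (up to 4 per list) or had no island. The 3 genes with widths most correlated with the members' mean were named too. Slc25a15 and Slc25a13 were named after their values were seen. Reads came from score steps with an effective genome fraction of 0.74, no interval for counting error can be given for an island, and errors are those between mice. Alternatives were other distances to a TSS (0 or 3 kb), equal numbers of the highest-scoring islands (7825), any gene with an island, centred libraries, the replicate block, library name form, a pseudocount of 1000 bp, the widest island, ranks from the top, and omission of each mouse. Each library is a different animal.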

Additional observations from a re-analysis of the deposited data

How the results depend on the processing

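Member calls in the planned comparisons changed with the omission of a library only: 0 of the other alternatives called a member there. The 4 pooled calls in width were lost in centred libraries, and with the 10 ChIP-named libraries alone, at differences of -1.70 for Asl (adjusted p = 0.0958), -1.90 for Ass1 (0.134), -1.80 for Gls2 (0.236) and -2.52 for Nags (0.128). Ass1 was also lost within 3 kb of a TSS (0.0655), Gls2 (0.0554) and Nags (0.274) with equal numbers of islands, and Nags with name form as a covariate (0.0794), while Tdo2 was added with a pseudocount of 1000 bp (0.0377). The 5 pooled calls in score rank were lost with equal numbers of islands, with centring and with ranks from the top, Ass1 and Nags also with any gene with an island (0.0545 and 0.0772), and Glul and Gls2 with ChIP names (0.0532 and 0.105). There Otc (0.0481) and Tdo2 (0.0385) were added with name form, and Tdo2 with ChIP names (0.0394). With the TSS inside the island 56% of gene and library pairs were marked in place of 90%, and Otc, Arg1, Tat and Tdo2 could not be fitted. Depth behind single islands is unknown, which limits calls of absence.

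Counts of genes called in width changed as follows, and the cause was not tested. In CR against SD (0) any gene with an island gave 22. In HF against SD (2) it gave 330, equal numbers or the widest island 1, and the TSS inside, centring, the block, name form, ChIP names and the larger pseudocount 0. In YD against SD (927) the TSS inside gave 576, equal numbers 88, centring 0 and ChIP names 529. In RD against SD (116) these were 56 with the TSS inside, 0 with centring, 68 with name form, 187 with ChIP names and 36 with the larger pseudocount. In RD against YD (173) they were 59 with the TSS inside, 21 with equal numbers, 8 with centring and 43 with the larger pseudocount. In the pooled comparison (3488) they were 2307, 1282 and 6 in the same order, and 789 with ChIP names. In score rank, any gene with an island gave 9 in CR, 93 in HF and 1 in RD against SD, centring 1 in HF against SD and 1 in RD against YD, and the TSS inside 7 and name form 37 in YD against SD (2). Within 3 kb the count was 0 in YD and in RD against SD (2), as it was in RD with equal numbers and with ranks from the top. The pooled count of 3095 became 189 with equal numbers, 15 with centring and 322 with ranks from the top.

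Omitting a library gave 0 to 3 genes in width in CR and in HF, 429 (without SD_1) to 1506 (without YD_1) in YD, 70 (without HF_1) to 291 (without RD_2) in RD, 125 to 375 (without YD_1) in RD against YD and 2238 (without YD_3) to 4717 in the pooled comparison. In score rank it gave 0 in CR, 0 to 3 in HF, 0 to 541 (without SD_3) in YD, 0 to 2 in RD, 0 to 2 in RD against YD and 1471 (without YD_3) to 4630 (without CR_1) in the pooled comparison. The share of marked pairs stayed between 89.3% and 92.1%, and the median member width between 2800 and 3000 bp.

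The replicate numbers showed no shared deviation: those of same-numbered mice correlated by -0.0854 to 0.065 over 30 pairs, and those of other pairs by -0.075 to 0.112. Whether the numbers follow litter or processing cannot be told from these values. With the replicate block 0, 0, 820, 80 and 136 genes were called in width in CR, HF, YD and RD against SD and RD against YD, 3301 in the pooled comparison, and 0, 0, 2, 2, 0 and 2624 in score rank. Of the calls of members, the block changed that of Nags in the pooled score rank (adjusted p = 0.0598).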

Other observations

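The genes whose log2 width followed the mean of the 10 members most closely over the 15 libraries were Aes (Pearson r = 0.94), Chmp1b (0.94) and Hivep2 (0.94), each with an island in all 15 libraries. The median r over the 8712 other genes compared was 0.56, so that most genes shared part of the pattern, and the points share the library and its depth.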
